A study of Mus musculus with 24 samples.

Results

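The genes described are 10 parts of the circadian clock, Per1, Per2, Per3, Cry1, Cry2, Arntl (also called Bmal1), Clock, Nr1d1, Nr1d2 and Dbp, followed through the differentiation of C2C12 cells. C2C12 is a single line of mouse myoblasts from skeletal muscle whose cells stop dividing and fuse into myotubes when serum is reduced. The members were chosen by symbol, as all probe sets that the array annotation assigns to each of the 10 genes alone, which gave 23 of the 45101 probe sets. The 10 genes are among 18194 genes named by such probe sets. The series holds 24 Affymetrix arrays at 8 time points, with 3 arrays apiece. Cells on Day -1 were at 50% confluency and those on Day 0 at 90%, both in growth medium with 10% serum, and all later cells had been moved to medium with 2% serum by the labels, although the study's methods give another, slightly higher concentration. Day 0.25 stands for 6 hours after that change, and Days 1, 2, 3, 4 and 5 followed, with fresh medium every 2 days. No transgene, knockout or drug was part of any group, and all cultures were of the same line.

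The clock of mammalian cells is a loop of transcription and feedback. The proteins of Clock and Arntl bind E-boxes as a pair and activate the Per and Cry genes, whose products return to the nucleus and repress that pair. A second loop runs through Nr1d1 and Nr1d2, the REV-ERB repressors, which bind response elements with an AGGTCA core in genes such as Arntl, while Dbp is an output factor that binds D-boxes. Cultured fibroblasts and myoblasts carry this clock, and a change of serum or medium can set its phase. Arrays of neighbouring days were sampled at nominal times 1 day apart, except at 6 hours, so these data cannot show a daily rhythm, and the hours of harvest and of the later medium changes were not given in the sources used here.

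RefSeq promoter windows, from 250 bases before to 50 after a start site (build GRCm38.p6), were matched to 9 of the 10 members, with 13 windows in all. Per2 had no entry. On both strands the windows were searched for the E-box CACGTG, the D-box TTANGTAA, the AGGTCA core and the CRE TGACGTCA. The E-box was found in 2 windows, the D-box in 1, the core in 4 and the CRE in none, against 7.15%, 2.32%, 16.3% and 1.79% of the 32851 windows of all genes. These letters are a description of the windows and not of binding, and the core can lie within longer elements. The windows are shown for Cry1, Arntl, Per1 and Per3, since they hold the letters of the E-box, of the core and of the D-box. Cry1 lies on chr10:85185005-85185304 (minus strand), Arntl on chr7:113207261-113207560 (plus strand), Per1 on chr11:69098699-69098998 (plus strand) and Per3 on chr4:151044616-151044915 (minus strand). Each is written 5′ to 3′ along its gene, with the matched letters in capitals. TGACCT is the core read on the other strand.
Cry1: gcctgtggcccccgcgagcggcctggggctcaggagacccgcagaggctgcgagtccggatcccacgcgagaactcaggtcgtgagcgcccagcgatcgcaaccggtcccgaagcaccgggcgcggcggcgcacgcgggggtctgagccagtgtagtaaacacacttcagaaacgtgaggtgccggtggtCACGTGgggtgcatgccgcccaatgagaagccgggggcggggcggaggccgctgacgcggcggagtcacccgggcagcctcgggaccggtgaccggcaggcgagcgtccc
Arntl: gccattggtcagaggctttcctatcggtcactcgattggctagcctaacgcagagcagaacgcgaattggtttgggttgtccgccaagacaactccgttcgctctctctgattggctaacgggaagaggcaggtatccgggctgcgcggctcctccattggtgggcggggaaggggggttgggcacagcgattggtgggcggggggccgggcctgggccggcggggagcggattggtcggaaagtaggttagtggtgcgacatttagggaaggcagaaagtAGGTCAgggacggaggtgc
Per1: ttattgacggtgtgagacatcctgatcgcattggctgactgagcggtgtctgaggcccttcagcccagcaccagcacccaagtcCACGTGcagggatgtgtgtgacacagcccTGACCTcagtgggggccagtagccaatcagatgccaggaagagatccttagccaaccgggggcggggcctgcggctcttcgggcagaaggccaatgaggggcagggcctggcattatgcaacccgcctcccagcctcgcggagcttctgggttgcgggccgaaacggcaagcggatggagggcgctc
Per3: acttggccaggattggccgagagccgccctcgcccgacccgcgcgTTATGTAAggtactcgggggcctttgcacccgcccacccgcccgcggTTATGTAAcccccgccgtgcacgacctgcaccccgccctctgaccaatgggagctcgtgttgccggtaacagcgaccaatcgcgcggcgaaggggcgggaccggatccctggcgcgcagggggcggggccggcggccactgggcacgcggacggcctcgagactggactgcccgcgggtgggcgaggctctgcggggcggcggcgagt
Cry1 and Per1 each held a single E-box in these windows, and Per1 held a core as well. The 2 D-boxes of Per3 had the same letters. The core was also in a window of Clock and in that of Nr1d2, which are not shown. The other windows of Arntl and Per1 held none of the 4 motifs. The windows of Dbp, Cry2 and Nr1d1 held none of the 4 motifs, which says only that these letters are not within them.

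The values are intensities on a linear scale, normalized by the authors, and a level averages the 3 arrays taken at 1 time point (± SD). Intensities of different probe sets do not share a scale, so levels were compared only within a probe set. Testing was limited to the 13766 probe sets whose level reached 100 somewhere in the course, in a single limma fit of log2 intensity on the 8 time points. The threshold for a change was a Benjamini-Hochberg adjusted p of 0.05 over those probe sets. Of the 10 members, 6 had a tested probe set (9 probe sets), and where a gene had several, the one of highest mean level stood for it. Cry2 passed the level filter only through Days 2 to 5, Arntl only through Day 0.25 and Day 1, the second set of Dbp only through Days 0, 4 and 5, and the third set of Clock only through Days 3 and 5. For these sets a high level at some time points was part of passing. Per1, Per2, Per3 and Nr1d1 stayed below the filter, and their tests come from the same fit to all 45101 probe sets. Whether the replicates were separate cultures is not given in the sources used here, so the p-values measure only how these arrays vary, which may be technical variation. With 3 arrays in each of a pair of groups, an exact permutation test reaches no p below 0.1, and single genes therefore rest on limma. In a culture, fewer cells that express a gene and less RNA per cell cannot be told apart.

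The arrays of a time point were alike, with Pearson's r between 0.962 and 0.996, and no arrays held identical values. Array medians ran from 3.64 to 3.88, and values near these are at the lower end of the scale. All 9 skeletal muscle markers reached a level of 100, among them Myod1, Myog and Ckm. None of the adipocyte, endothelial and leukocyte markers with a probe set did (4, 5 and 4 genes), and all of these stayed below 20. Of 5 smooth muscle markers, Smtn and Acta2 reached 100, and of 5 osteoblast or chondrocyte markers only Sox9 did.

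Before induction, when the cultures went from 50% to 90% confluency, Dbp and Cry2 rose, and Cry1, Clock and Arntl fell. At 6 hours after the change to low serum, each of these 5 genes had turned around, by its probe set of highest level. Dbp and Cry2 were lower than on Day 0, and Cry1, Arntl and Clock were higher. The second tested set of Clock instead had levels of 137 on Day -1, 129 on Day 0 and 106 after 6 hours. The third set of Clock did not pass over these 6 hours. Arntl was tested only through its levels on Day 0.25 and Day 1. The counts were 2 up and 3 down of 6 tested members in the first interval, in which 23.3% of all tested probe sets rose and 21.7% fell. In the next interval they were 3 up and 2 down, with 22.4% of all tested probe sets rising and 20.9% falling. The 2 intervals share the Day 0 arrays, so an unusual value on Day 0 would move both in opposite directions. The levels of Day -1 and Day 0.25 share no array, and are given side by side for each gene below.

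**Figure D1:**
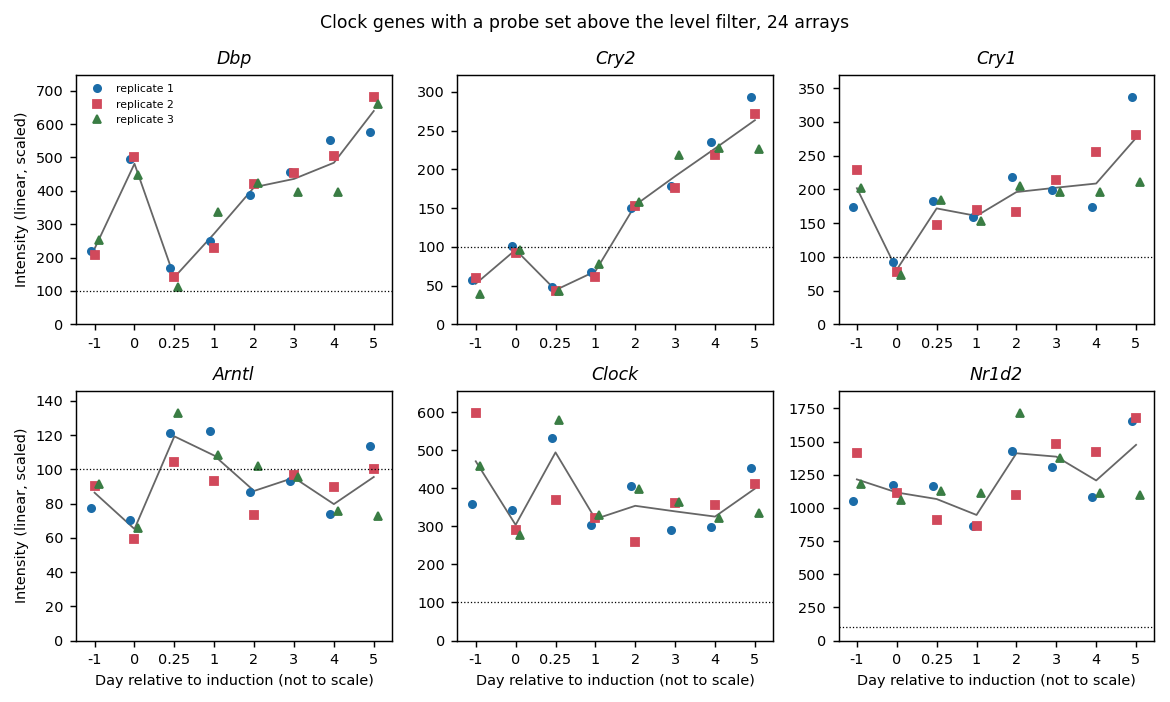
Intensity (linear, scaled by the authors) of the 6 clock genes with a probe set above the level filter, on each of the 24 arrays. Points are arrays, marked by replicate number, the grey line joins the means of 3 arrays, the dotted line is the level filter of 100, and days are evenly spaced rather than to scale. Dbp and Cry2 dip at 6 hours (Day 0.25) from a Day 0 peak, while Cry1 and Arntl have their lowest values on Day 0.

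Dbp encodes a PAR bZIP factor whose transcript is a direct output of the clock and follows E-box activity. On the 3 arrays of Day -1 its intensity was 221, 208 and 252. On Day 0 it was 494, 502 and 447, and after 6 hours it was 168, 142 and 113. The 6-hour arrays were below all arrays of Day -1, and the Day 0 arrays were above both. Dbp rose 2.13-fold from Day -1 to Day 0 (log2 change 1.09, SE 0.15, adjusted p = 1.18e-05 in limma). It then fell 3.45-fold by 6 hours (log2 change -1.79, SE 0.15, adjusted p = 3.21e-08), the largest change of a tested member between neighbouring time points when 1 probe set represents each gene. By Day 1 its intensity was 249.6, 229 and 337, and on Day 2 it was 389, 422 and 422. Both steps passed, with log2 changes of 0.95 (SE 0.15, adjusted p = 0.000158) and 0.61 (SE 0.15, adjusted p = 0.00313). The second of them did not pass without the arrays of replicate 1 (adjusted p = 0.0546) or of replicate 2 (0.0852). From Day 2 on the levels were 411 ± 19.2, 436 ± 34.5, 484 ± 79.7 and 639 ± 55.6 (SD, n = 3), and the Day 5 arrays at 576, 680.4 and 661 were above those of every other day. Day 5 was only 1.33-fold above Day 0 (log2 change 0.41, SE 0.15, adjusted p = 0.0247), and that call ended without replicate 3 of Day 0 (0.0854) and without replicate 2 (0.0810) or 3 (0.0611) of Day 5, without all arrays of replicate 1 (0.0519) or 2 (0.134), and in the fit to all probe sets (0.0610).

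A second probe set of Dbp, whose levels spanned 6.99-fold over the course, gave the same pattern from lower intensities. Its levels were 43.6 ± 9.74 on Day -1, 128 ± 20.4 on Day 0, 22.8 ± 3.28 after 6 hours and 58.1 ± 9.74 on Day 1 (SD, n = 3). The fall over the first 6 hours was 5.59-fold (log2 change -2.48, SE 0.22, adjusted p = 4.14e-08), against 3.45-fold by the first. The second set passed the level filter only through Days 0, 4 and 5, so a high Day 0 level was part of being tested. Its levels on Day -1 and after 6 hours lay below 50. The set with the higher level is of a type whose probes can match several genes.

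The cryptochromes Cry1 and Cry2 encode repressors of the Clock and Arntl pair, and their transcripts moved in opposite directions in both early intervals. Cry1 had intensities of 174, 228 and 203 on Day -1 and of 92.6, 77.6 and 72.7 on Day 0. After 6 hours they were 183, 148 and 184. The Day 0 arrays were below all other 21 arrays of the series, and those of Day -1 and Day 0.25 overlapped. Cry1 fell 2.49-fold from Day -1 to Day 0 (log2 change -1.32, SE 0.16, adjusted p = 3.06e-06) and rose 2.12-fold by 6 hours (log2 change 1.08, SE 0.16, adjusted p = 3.58e-05). Levels on Days 1 to 5 were 161 ± 8.24, 196 ± 27, 202 ± 9.64, 209 ± 41.4 and 276 ± 62.6 in turn (SD, n = 3). No step between neighbouring days from 6 hours on passed for Cry1. Day 5 was 3.37-fold above Day 0 (log2 change 1.75, SE 0.16, adjusted p = 1.60e-08), but its arrays at 336, 281 and 211 overlapped those of Day -1.

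Cry2 had intensities of 57, 60.4 and 39.8 on Day -1 and of 101, 92.4 and 95.7 on Day 0. After 6 hours they were 47.6, 42.4 and 42.7, and on Day 1 they were 66.9, 60.8 and 77.8. Day 0 lay above both neighbours without overlap, and the 6-hour arrays overlapped those of Day -1. The rise before induction was 1.87-fold (log2 change 0.90, SE 0.14, adjusted p = 2.70e-05) and the fall over 6 hours 2.18-fold (log2 change -1.12, SE 0.14, adjusted p = 2.83e-06). Cry2 rose again by Day 1 (log2 change 0.63, SE 0.14, adjusted p = 0.00216) and by Day 2 (log2 change 1.17, SE 0.14, adjusted p = 1.88e-06), when its arrays read 151, 153 and 158. Levels went on to 191 ± 24.1 on Day 3, 227 ± 8.6 on Day 4 and 263 ± 34.3 on Day 5 (SD, n = 3), with no single step passing. From Day 0 to Day 5 Cry2 rose 2.72-fold (log2 change 1.45, SE 0.14, adjusted p = 1.64e-08). Cry2 passed the level filter only through Days 2 to 5, so its rises to Day 2 and Day 5 were part of being tested. Cry2 kept both calls in the fit to all probe sets. Its levels spanned 5.96-fold between 6 hours and Day 5.

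Arntl and Clock encode the activating pair. Arntl had intensities of 77.5, 90.3 and 91.2 on Day -1, of 70.6, 59.3 and 65.6 on Day 0, and of 121, 104 and 133 after 6 hours. The Day 0 arrays were the lowest 3 of the 24. Arntl rose 1.83-fold over the first 6 hours (log2 change 0.87, SE 0.15, adjusted p = 0.000169), and the 6-hour arrays were also above all those of Day -1. Arntl passed the level filter only through Day 0.25 and Day 1, so a high level at 6 hours was part of being tested. The rise also passed in the fit to all probe sets. The smaller fall before induction (log2 change -0.41, SE 0.15, adjusted p = 0.0359) did not pass in the fit to all probe sets (0.0897). It also ended without Day -1 replicate 2 (0.105), Day -1 replicate 3 (0.103), Day 0 replicate 2 (0.130) or Day 0 replicate 3 (0.0731), and without all arrays of replicate 1 (0.0550), 2 (0.215) or 3 (0.124). Later levels lay between 79.7 and 108, and Day 5 was above Day 0 (log2 change 0.53, SE 0.15, adjusted p = 0.00484), a call that ended without all arrays of replicate 1 (0.0759) or 2 (0.0646). The other probe set of Arntl stayed at 1.38 to 1.40 throughout.

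Clock was measured by 4 probe sets that did not move alike. The set with the highest level had intensities of 359, 597 and 458 on Day -1, of 344, 292 and 276 on Day 0, of 533, 371 and 580.2 after 6 hours and of 305, 322 and 331 on Day 1. It fell before induction (log2 change -0.61, SE 0.20, adjusted p = 0.0171), rose over 6 hours (log2 change 0.68, SE 0.20, adjusted p = 0.00934) and fell by Day 1 (log2 change -0.61, SE 0.20, adjusted p = 0.0290). These 3 calls rested on single arrays. The first ended without replicate 2 of Day -1 (adjusted p = 0.118) and without replicate 2 (0.0520) or 3 (0.0663) of Day 0, the second without Day 0.25 replicate 3 (0.0585) or the arrays of replicate 1 (0.0528) or 3 (0.224), and the third without Day 0.25 replicate 1 (0.110) or 3 (0.135) or without Day 1 replicate 1 (0.0782), 2 (0.0671) or 3 (0.0590). The first also ended without all arrays of replicate 2 (0.107) or 3 (0.151), and the third without those of replicate 1 (0.205) or 3 (0.283). In the fit to all probe sets the first and the third did not pass (0.0519 and 0.0873).

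The second probe set of Clock had a lower level after 6 hours than on Day 0, 106 ± 41.2 against 129 ± 8.54 (SD, n = 3), with arrays that overlapped (log2 change -0.35, SE 0.27, adjusted p = 0.301). The third went from 61 ± 10.2 to 75.5 ± 0.894 (log2 change 0.32, SE 0.17, adjusted p = 0.137). From Day 0 to Day 5 both rose, though the third was tested only because of its levels on Days 3 and 5, by log2 changes of 0.78 (SE 0.27, adjusted p = 0.0172) and 0.79 (SE 0.17, adjusted p = 0.000507), while that of the set with the highest level was 0.39 (SE 0.20, adjusted p = 0.0904). The fourth set stayed between 4.05 and 4.61. Whether the sets measure different transcripts of Clock was not tested.

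**Figure D2:**
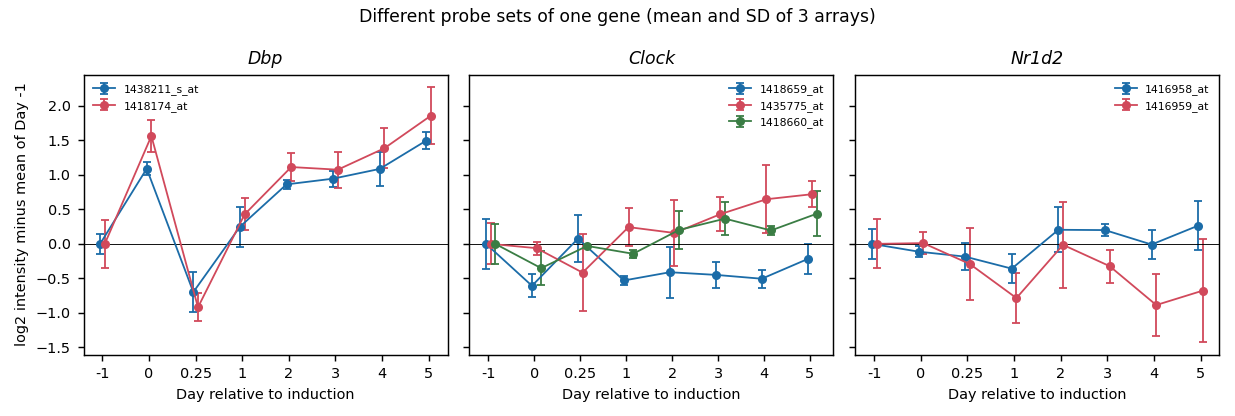
Log2 intensity minus the mean of Day -1 for the probe sets of Dbp, Clock and Nr1d2 that reach a level of about 90 or more, as the mean and SD of 3 arrays at each of the 8 time points. The 2 Dbp sets follow each other, with log2 changes of -1.79 and -2.48 over the first 6 hours, while the Clock sets part at Day 0.25.

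Nr1d1 and Nr1d2 encode the REV-ERB repressors. Nr1d1 stayed below the level filter but well above the array median, with intensities of 69.7, 61.1 and 60 on Day -1 and of 79, 116 and 79.6 on Day 0. After 6 hours they were 29.6, 43.8 and 44.2, and on Day 1 they were 28.6, 26.2 and 44.8. The Day 0 arrays were above all others, and the arrays of 6 hours and Day 1 were below those of both earlier time points. In the fit to all probe sets Nr1d1 fell 2.33-fold over the first 6 hours (log2 change -1.22, SE 0.19, adjusted p = 0.000264), where 6.49% of all probe sets fell. The rise before induction did not pass (log2 change 0.50, SE 0.19, adjusted p = 0.0994), and neither did any later step. Levels returned to 62.4 ± 6.18 on Day 4 and were 48.7 ± 3.42 on Day 5 (SD, n = 3), below Day 0 (log2 change -0.89, SE 0.19, adjusted p = 0.00170). Both falls passed in every fit that left out an array or a replicate number. In either direction, 25.5% of all probe sets passed between Day 0 and Day 5.

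Nr1d2, the close relative of Nr1d1, had intensities of 1175, 1116 and 1056 on Day 0 and of 1163, 907 and 1130.0 after 6 hours. These overlapped, and the log2 change of -0.07 (95% interval -0.44 to 0.30, adjusted p = 0.762) leaves a change of the size seen in Nr1d1 outside that interval. Nr1d2 rose from 946 ± 141 on Day 1 to 1411 ± 309 on Day 2 (SD, n = 3; log2 change 0.56, SE 0.18, adjusted p = 0.0151). That call ended without replicate 1 (adjusted p = 0.0615) or 2 (0.0625) of Day 1 and without replicate 3 of Day 2 (0.0971). It also ended without all arrays of replicate 1 (0.206) or 3 (0.0547). For Nr1d2 the arrays of Day 2 at 1428, 1095 and 1712 overlapped those of Day 1 at 866, 865 and 1109. Its second probe set stayed below the filter, at 52.4 ± 13.8 on Day 1 and 92.7 ± 35.3 on Day 2 (log2 change 0.77, SE 0.37, adjusted p = 0.0922).

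The Period genes, the partners of the cryptochromes in repression, were low. Per1 had a single probe set, whose levels lay between 3.47 and 5.86, near the median of an array. The only Per1 contrast to pass was Day 5 against Day 0, 5.86 ± 1.5 against 3.47 ± 0.719 (SD, n = 3; adjusted p = 0.00151 in limma), and it ended without the arrays of replicate 2 (0.139) and with values below 50 raised to 50. Over the first 6 hours Per1 did not pass (adjusted p = 0.542). At this level the probe set can hardly tell low from absent transcript.

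One of the 3 probe sets of Per2 read 2.38, 2.12 and 2.14 on Day 0, and 2.32, 3.24 and 2.09 after 6 hours. It read 5.01, 3.8 and 7.49 on Day 2 and 17.8, 24.1 and 17.5 on Day 5. The Day 5 arrays were above all others, and those of Days 2 to 5 were above all arrays of Day -1 to Day 1. Both the rise from Day 1 to Day 2 (adjusted p = 0.0288) and that from Day 0 to Day 5 (adjusted p = 2.52e-07) passed in limma. No fold is given, since the levels of Day 0 and Day 1 lay below the array medians. Of all 45101 probe sets, 8.88% rose between Day 1 and Day 2. The first of these calls ended without Day 1 replicate 2 (adjusted p = 0.0992), without replicate 1 (0.0765) or 3 (0.0911) of Day 2, and without the arrays of replicate 1 (0.199), 2 (0.0853) or 3 (0.0785), while the second held in each of these fits. With values below 50 raised to 50, no Per2 change is left. The other sets of Per2 stayed between 1.69 and 1.80 at every time point.

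Per3 had 6 probe sets, of which the highest read 15.3, 15.6 and 15.7 on Day 0, 15.8, 15 and 18.2 on Day 1 and 51.6, 26.9 and 41 on Day 2. The arrays of Day 2 were above those of Day 1 (log2 change 1.24, SE 0.40, adjusted p = 0.0343). That call ended without replicate 1 (0.108) or 2 (0.105) of Day 1, without replicate 1 (0.129) or 3 (0.0792) of Day 2, and without the arrays of replicate 1 (0.259) or 2 (0.0956). With values below 50 raised to 50 the log2 change was 0.02 (1.0). On Day 5 they were 61.6, 83.4 and 18, so that replicate 3 lay near the Day 0 arrays while the other arrays were far above them (Day 5 against Day 0, log2 change 1.54, SE 0.40, adjusted p = 0.00671). This one ended without Day 5 replicate 2 (0.0521) and without the arrays of replicate 1 (0.220) or 2 (0.177). With values below 50 raised to 50, the Day 0 arrays and Day 5 replicate 3 were equal. The difference then rested on replicates 1 and 2 of Day 5. A second set had a level of 4.01 ± 0.452 on Day 0 and 9.14 ± 3.68 on Day 5 (SD, n = 3; adjusted p = 0.000831 in limma), which ended without the arrays of replicate 2 (0.0626) and with values below 50 raised to 50. The 4 others had levels between 1.71 and 5.24, and 1 of these also passed between Day 0 and Day 5, with levels below the array medians.

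**Figure D3:**
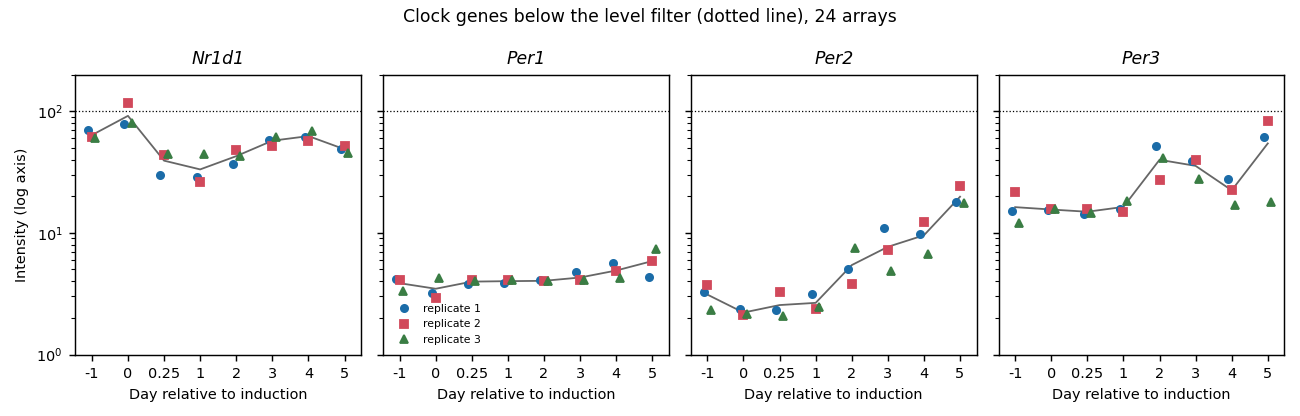
Intensity (log axis) of Nr1d1, Per1 and the highest probe sets of Per2 and Per3 on each of the 24 arrays, with points marked by replicate number, a grey line through the means of 3 arrays and a dotted line at the level filter of 100. Nr1d1 falls from 91.5 on Day 0 to 39.2 at Day 0.25, Per2 climbs to 19.8 on Day 5, and Per1 stays below 10.

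The 6-hour time point was also set against the mean of Day 0 and Day 1, and 5 of the 6 tested members passed. Cry1, Arntl and Clock were higher and Cry2 and Dbp lower, where 21.8% of all tested probe sets were higher and 17.5% lower. The log2 difference was -1.37 for Dbp (SE 0.13, adjusted p = 2.16e-07) and -0.87 for Cry2 (SE 0.12, adjusted p = 1.25e-05). It was 0.64 for Clock (SE 0.17, adjusted p = 0.00597), 0.59 for Cry1 (SE 0.14, adjusted p = 0.00315) and 0.51 for Arntl (SE 0.13, adjusted p = 0.00530). The direction of Clock depended on its probe set. The second tested set was lowest at 6 hours, 106 ± 41.2 against 129 ± 8.54 on Day 0 and 162 ± 32.4 on Day 1. The third was 75.5 ± 0.894 against 61 ± 10.2 and 69.8 ± 2.98 (SD, n = 3). This contrast uses the same 6-hour arrays as the neighbouring intervals, and it does not show a difference from each neighbour. Without all arrays of replicate 3, only Cry2 and Dbp remained (adjusted p = 0.0984 for Cry1, 0.0664 for Arntl and 0.172 for Clock), and Clock also ended without Day 0.25 replicate 3 (0.0574) or the arrays of replicate 1 (0.0632). Cry1 and Arntl did not pass between 6 hours and Day 1, where their arrays overlapped, with log2 changes of -0.09 (95% interval -0.43 to 0.25) and -0.14 (-0.46 to 0.17). For these genes the contrast rests on the difference from Day 0. Arntl was tested only through Day 0.25 and Day 1, so its place in this count was partly selected. Arntl also passed this contrast in the fit to all probe sets.

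From 6 hours to Day 1, Cry2 and Dbp rose and Clock fell, where 11.6% of all tested probe sets rose and 15.4% fell. From Day 1 to Day 2, Cry2, Dbp and Nr1d2 rose and none fell, where 22.7% of all tested probe sets rose and 21.7% fell. No tested member passed in limma in the 3 intervals after Day 2 (6.17%, 1.13% and 3.49% of all tested probe sets passed in either direction). At an unadjusted p under 0.05 there were 1, 0 and 2 members, and 20.6%, 17.2% and 18.1% of all tested probe sets. Without Day 5 replicate 3, 1 member passed in the last interval. Between Day 0 and Day 5, 4 of 6 tested members rose (Cry1, Cry2, Arntl and Dbp) and none fell, where 27.6% of all tested probe sets rose and 37.3% fell. The median log2 change of the 6 was 0.47, against -0.11 over all tested probe sets. Cry2 was tested only through Days 2 to 5, so its rises in these counts and in the median were partly selected. Day 0 was the lowest time point of Cry1 and Arntl, and their Day 5 arrays overlapped those of Day -1. The Dbp and Arntl calls ended in 5 and 2 of 27 fits that left out an array or a replicate number. Over the 8 time points together all 6 passed limma's F test, as did 88.8% of all tested probe sets. Nr1d2 did not pass with the replicate number as a block (adjusted p = 0.0540), and neither Clock (0.0658) nor Nr1d2 (0.0907) passed in the fit to all probe sets. Clock also ended without replicate 1 (0.0564) or 3 (0.0575) of Day 0.25 or the arrays of replicate 1 (0.0675) or 3 (0.238). Nr1d2 ended without replicate 1 (0.0887) or 2 (0.0888) of Day 1, replicate 1 of Day 2 (0.0518), replicate 2 of Day 3 (0.0533), replicate 1 (0.0613) or 2 (0.0603) of Day 5, or the arrays of replicate 1 (0.319) or 2 (0.0619).

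**Figure D4:**
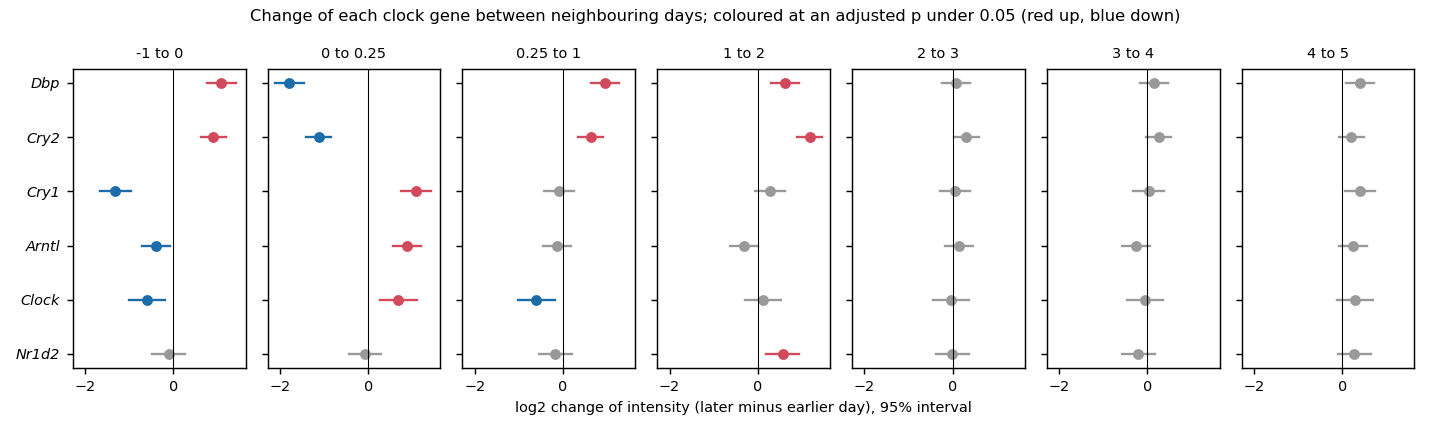
Log2 change of intensity between neighbouring days (horizontal axis, later minus earlier, with its 95% interval from limma) for the 6 tested clock genes, 1 panel for each of the 7 intervals, red for a rise and blue for a fall at an adjusted p under 0.05. From -1 to 0 and from 0 to 0.25, the same 5 genes are coloured with opposite signs, and no gene is coloured in the last 3 panels.

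Markers of proliferation moved in the same early intervals. The summed intensity of Mki67, Top2a, Cdk1 and Aurkb was 7825 to 8252 on the Day -1 arrays, 3683 to 4497 on Day 0, 6154 to 6640 after 6 hours and 4515 to 5428 on Day 1. It was 310 to 533 on Day 5. All 4 markers fell from Day -1 to Day 0, and Mki67 rose by 6 hours. The summed intensity of the 9 muscle markers was 5481 to 5804 on Day -1, 10926 to 12034 on Day 0, 10160 to 11612 after 6 hours and 32103 to 37666 on Day 5. Of the 5 smooth muscle markers, Myh11, Cnn1 and Lmod1 stayed below 20 throughout, so their summed intensity was nearly all that of Acta2 and Smtn. This sum was 1885 to 2656 on Day -1, 3017 to 3502 on Day 0, 5344 to 5696 after 6 hours and 8227 to 8477 on Day 5. There was no overlap between these time points. The part of dividing or differentiating cells in the changes of the clock genes was not tested. Whether any smooth muscle cells were present was not tested either.

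Of 11 further transcription factors of the clock, 4 were tested, and all 4 passed from Day 1 to Day 2, 3 upward and 1 downward, where 22.7% of all tested probe sets rose and 21.7% fell. Rorb was tested only through Day -1 and Day 0.25, and Nfil3 only through Days 2 to 5. Tef, a PAR bZIP factor like Dbp, had a level of 304 ± 85.2 on Day -1, 431 ± 18 on Day 0 and 361 ± 44.8 after 6 hours (SD, n = 3). It rose to 772 ± 169.6 on Day 2 (log2 change 1.01, SE 0.19, adjusted p = 0.000271), and its Day 5 level was 1225 ± 227. Tef shared the rise of Dbp before induction (log2 change 0.54, SE 0.19, adjusted p = 0.0247), and its fall over 6 hours did not pass. The call for the rise ended without replicate 1 (0.119) or 3 (0.0907) of Day -1 or replicate 1 (0.0673) or 3 (0.0540) of Day 0. It also ended without all arrays of replicate 1 (0.209) or 3 (0.187) and in the fit to all probe sets (0.0714). Nfil3, a repressor that binds the same D-boxes, fell over 6 hours (log2 change -0.36, SE 0.12, adjusted p = 0.0187), rose by Day 1 (0.42, SE 0.12, adjusted p = 0.0135) and went from 71.3 ± 8.66 on Day 1 to 181 ± 26.5 on Day 3. The Nfil3 calls around 6 hours both ended without replicate 1 or 3 of Day 0.25 (adjusted p between 0.0640 and 0.0878). The first also ended without Day 0 replicate 3 (0.0593) and the second without Day 1 replicate 3 (0.0818). Without all arrays of replicate 1 or 3 both ended as well (0.155 and 0.194 for the first, 0.0774 and 0.297 for the second). Bhlhe40, also called Dec1, which represses through E-boxes, fell before induction (log2 change -0.31, SE 0.11, adjusted p = 0.0319). That call ended without any one array of Day 0 (0.0511 to 0.103) or without replicate 2 (0.0969) or 3 (0.0593) of Day -1. It also ended without all arrays of replicate 1 (0.0844), 2 (0.109) or 3 (0.150) and in the fit to all probe sets (0.06). Bhlhe40 was 687 ± 84 on Day 5 against 409.6 ± 20.8 on Day 0 (log2 change 0.74, SE 0.11, adjusted p = 1.24e-05). Rorb, a ROR receptor of the class that opposes the REV-ERBs, had a level of 205 ± 22.1 on Day -1, 74.4 ± 23 on Day 0, 117 ± 16.5 after 6 hours and 22.3 ± 5.3 by Day 5. The first of these steps passed with a log2 change of -1.50 (SE 0.27, adjusted p = 0.000154). The second, 0.68 (SE 0.27, adjusted p = 0.0455), was lost in 15 of 27 fits that left out an array or a replicate number, with adjusted p up to 0.304 without the arrays of replicate 3 (log2 change 0.42).

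Of 15 kinases, ligases and partners of clock proteins, 11 were tested. In this list 2 rose and 2 fell before induction, 1 rose and 2 fell over the first 6 hours, and 5 rose and 4 fell from Day 0 to Day 5. The shares of all tested probe sets that rose and fell in these comparisons were 23.3% and 21.7%, 22.4% and 20.9%, and 27.6% and 37.3%. Usp2, a deubiquitinase whose transcript follows the clock in many tissues, passed in the same directions as Dbp in the first 4 intervals. Its level went from 10.6 ± 3.55 on Day -1 to 70.3 ± 9.32 on Day 0, 22.9 ± 7.11 after 6 hours, 66.7 ± 16 on Day 1 and 215 ± 31.4 on Day 2 (SD, n = 3). The log2 changes were 2.78 (SE 0.27, adjusted p = 1.36e-07), -1.67 (SE 0.27, adjusted p = 7.81e-05), 1.57 (SE 0.27, adjusted p = 0.000311) and 1.71 (SE 0.27, adjusted p = 5.89e-05). With values below 50 raised to 50, the first 3 did not pass (0.0531, 0.0537 and 0.149). Usp2 was tested through Days 2 to 5 and Timeless through Day -1 to Day 1, the times when each was high. Tipin and Timeless, which act at replication forks, fell from Day 0 to Day 5, by log2 changes of -1.66 and -4.06, and Gsk3b, a kinase of clock proteins, rose by 0.98 (adjusted p = 4.09e-07).

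Of 10 genes known as clock outputs, 8 were tested, with 3 up and 3 down before induction, and 1 up and 5 down over 6 hours, beside 23.3% up and 21.7% down, and 22.4% up and 20.9% down, among all tested probe sets. Wee1, a kinase that holds back mitosis, fell before induction (log2 change -0.63, SE 0.17, adjusted p = 0.00531; 0.0711 without the arrays of replicate 3) and reached 148 ± 15.9 on Day 5 from 489 ± 41.8 on Day -1. Cdkn1a, the CDK inhibitor p21, went from 1002 ± 176 to 2407 ± 239 before induction and to 1484 ± 355 after 6 hours, and both changes passed (log2 1.27, adjusted p = 3.10e-06, and -0.72, adjusted p = 0.00141, or 0.0580 without the arrays of replicate 3). Klf10 rose over 6 hours (log2 change 0.36, SE 0.13, adjusted p = 0.0277). That call ended without Day 0 replicate 3 (0.152) or replicate 1 (0.0698) or 3 (0.140) of Day 0.25. It also ended without all arrays of replicate 1 (0.0662) or 3 (0.490), in the fit to all probe sets (0.0621) and in a separate fit (0.0538). Klf10 was 132 ± 22.2 on Day 5 against 294 ± 36.8 on Day 0. Tcap, the sarcomere protein telethonin, was at 4.95 ± 0.923 on Day 0 and 225 ± 63.4 on Day 5, and was tested only through Days 4 and 5.

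Glucocorticoid and serum signals can set the phase of cultured clocks, and genes of both responses were examined at the same time points. Of 10 glucocorticoid response genes, 9 were tested, with 4 up and 5 down before induction (23.3% and 21.7% of all tested probe sets) and 2 up and 3 down over 6 hours (22.4% and 20.9%). Tsc22d3 (GILZ) fell over the first 6 hours from 1668 ± 55.8 to 720.2 ± 51.9 (log2 change -1.21, SE 0.10, adjusted p = 2.16e-08). Klf9 fell from 659 ± 24.9 to 347 ± 20.1 (log2 change -0.93, SE 0.09, adjusted p = 9.29e-08). Fkbp5, a chaperone of the receptor, instead rose from 70.8 ± 2.04 to 173 ± 17.8 (log2 change 1.28, SE 0.14, adjusted p = 6.90e-07). Fkbp5 was tested only through Day -1 and Day 0.25. The list had no common direction. Errfi1, an inhibitor of EGF receptor signalling, did not pass over 6 hours and fell from Day 3 to Day 4 (log2 change -1.22, SE 0.13, adjusted p = 4.71e-05; 0.118 without the arrays of replicate 3).

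Of 11 immediate early genes, 8 were tested, and over the first 6 hours none rose and 4 fell, where 22.4% of all tested probe sets rose and 20.9% fell. From 6 hours to Day 1, 6 rose and none fell, against 11.6% and 15.4% of all. Atf3 fell from 785 ± 28.1 on Day 0 to 169 ± 17.6 after 6 hours (log2 change -2.22, SE 0.12, adjusted p = 5.31e-11). Egr1 went from 415 ± 55.6 on Day -1 to 1558 ± 119.7 on Day 0, 775 ± 133 after 6 hours and 1559 ± 96.1 on Day 1. Later Egr1 was 2595 ± 84.2 on Day 3, 955 ± 134 on Day 4 and 3011 ± 425 on Day 5, and Fos was 89.9 ± 17.4, 21.1 ± 7.98 and 161 ± 37.3 on the same days. Both fell from Day 3 to Day 4 (Egr1, log2 change -1.45, adjusted p = 4.71e-05, and Fos, -2.14, adjusted p = 0.000436) and rose by Day 5 (1.66, adjusted p = 3.28e-06, and 2.97, adjusted p = 3.28e-06). Without the arrays of replicate 3 the falls did not pass (0.0932 for Egr1 and 0.156 for Fos), and in a separate fit to Days 4 and 5 neither did the rises (0.0527 each). Fos passed the level filter only through Day 5, so its rise was part of being tested. No tested member passed in those intervals. Nr4a1 did not pass over the first 6 hours and rose by Day 1 (log2 change 0.92, SE 0.15, adjusted p = 0.000164), which did not pass with values below 50 raised to 50 (0.669). Nr4a1 was tested only through its levels on Days 4 and 5.

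**Figure D5:**
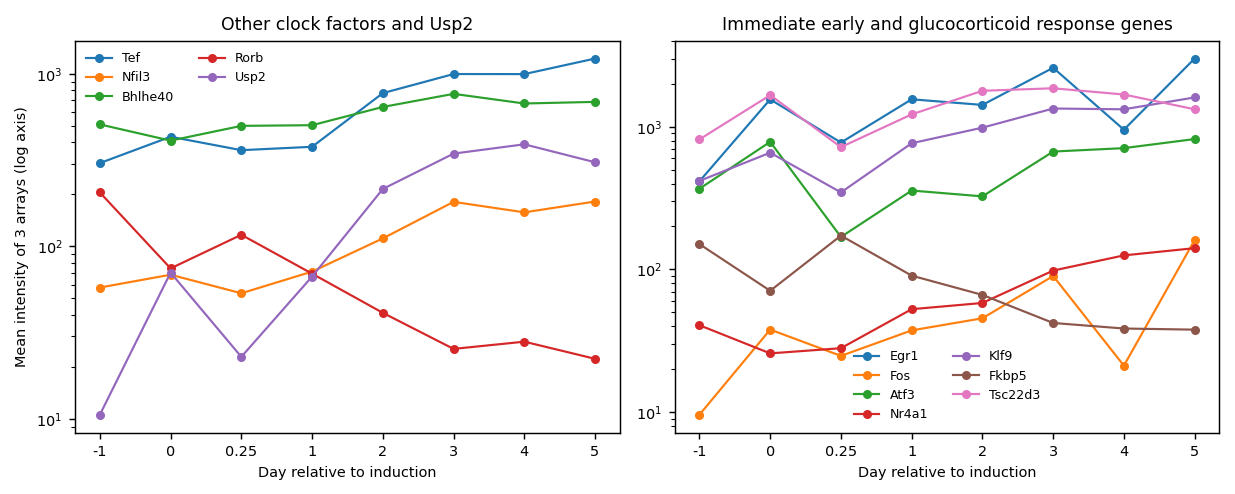
Mean intensity of 3 arrays (log axis) at the 8 time points for other clock factors with Usp2 (left) and for immediate early and glucocorticoid response genes (right), drawn without error bars. Usp2 drops from 70.3 on Day 0 to 22.9 at Day 0.25, and Egr1 and Fos drop on Day 4 between higher values on Days 3 and 5.

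For the 3 members with the strongest F test, the genes with the most similar course over the 24 arrays were looked for among all tested probe sets with 1 gene. These correlations of log2 intensity are descriptions, and the arrays share their time points. For Cry2 they were Cd36 (r = 0.983), Slc26a7 (0.982) and Ghitm (0.977), which respectively encode a fatty acid receptor, an anion transporter and a mitochondrial inner membrane protein. Ghitm was 965 ± 52.6 on Day -1, 2095 ± 103 on Day 0, 1004 ± 85 after 6 hours and 3647 ± 197 on Day 5. Slc26a7 was 3.28 ± 0.074 on Day -1 and 3.37 ± 0.29 after 6 hours, below the array medians. Cd36 was 5.47 ± 1.8 and 5.84 ± 1.89 at these time points, also at the lower end of the scale. For Dbp they were Slc3a2 (0.949), Cebpg (0.945) and Sesn2 (0.942), all known as genes of the amino acid response. Slc3a2, a subunit of amino acid transporters, was 3145 ± 221 on Day 0 and 946 ± 55.3 after 6 hours, the same low point as Dbp. For Cry1 they were Ivns1abp (0.931), Son (0.929) and Prpf4b (0.921), of which the last 2 act in splicing. Son, a speckle protein, was 49.6 ± 8.35 on Day 0 and 131 ± 28 after 6 hours.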

How the data were processed

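RNA of C2C12 cells was measured on 24 arrays, grouped into 8 time points by their labels. The deposited intensity values were made by the authors with GC-RMA, returned to a linear scale and scaled on each array to a common trimmed mean. The submitters' processing notes also name MAS5, with no role given. Values were taken to log2 and fitted with limma 3.58.1 in R 4.3.3, in 1 fit of all time points, limited to probe sets whose level reached 100. The number of arrays limits the precision. Probe sets were named by the array annotation, updated through Entrez Gene identifiers to RefSeq (34958 with 1 gene, 34754 of them in RefSeq, 932 with several and 9211 with none). The members and lists were chosen with earlier results of these data known. From each other list up to 4 genes with the lowest p of the F test were named. Genes without a probe set under their symbol were not analysed here. The fit was tested on simulated data. Alternatives were the replicate number as a block, levels of at least 200 or none, quantile normalization, values below 50 raised to 50, an intensity trend in the prior, separate fits, representing a gene by its probe set of largest absolute moderated t, and leaving out each array or replicate.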

Additional observations from a re-analysis of the deposited data

How the results depend on the processing

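Of 25 changes called for tested members, none changed direction under any alternative, and 14 kept their call when each array or replicate number was left out. All 25 kept it under quantile normalization, an intensity trend in the prior and values below 50 raised to 50. Choosing probe sets by their largest absolute moderated t could not lose a call, since the set first used was among the choices. That alternative could only change a direction, and it changed none. Without a level filter 4 were lost. Members called then numbered 3 before induction, 5 between Days 1 and 2 and 7 between Days 0 and 5, where Per and Nr1d1 sets enter. Separate fits gave 3 members before induction, since Cry2 and Arntl lie below the level filter at both time points. Over the fits that left out arrays, the count was 3 to 5 before induction, 4 to 5 over the first 6 hours, 2 to 3 up to Day 1, 1 to 3 up to Day 2, 0 to 1 for the last interval, 2 to 5 for Day 0.25 against its neighbours, 2 to 5 for Day 5 against Day 0 and 4 to 6 for the F test. Replicate numbers gave no consistent pairing over the course. From Day 3 to Day 4 every array was closest to its own number (r of 0.35, 0.318 and 0.211). Whether arrays of a number shared a batch was not tested. Of 21 same-numbered neighbours, 12 had deviations from their time point means correlated above 0.1 (r between -0.513 and 0.554), and 9 were closest to their own number. With the replicate number as a block, all 25 calls between time points were kept, 5 members were called over the first 6 hours, and 5 of 6 rather than 6 passed the F test, without Nr1d2 (adjusted p = 0.0540). Of 98 calls for the named genes of the other lists, 60 kept their call in every fit that left out arrays, 69 kept it under all other alternatives, and none changed direction. In 7 of them, for Tcap, Fos and Nr4a1, raising values below 50 to 50 left a change of 0.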
